A study of Mus musculus with 2 samples.

Results

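Natural killer (NK) cells were picked out of single-cell RNA profiles of CD45-selected cells from mouse tumours, 1 library labelled Control and 1 labelled Motolimod-treated. Motolimod is a synthetic compound that activates TLR8, an endosomal receptor for RNA. Each library pooled tumour tissue from 5 mice, and no barcode can be traced to a mouse, so each group counts as 1 sample. The labels give no tumour line, strain, age, dose, route or time, and state no allele or agent shared by both groups. A barcode was taken as an NK cell when it held at least 300 genes, at least 800 unique molecular identifiers (UMIs, counted RNA molecules) and at most 10% mitochondrial UMIs. It also had to hold at least 2 of the markers Ncr1, Klrb1c, Klre1, Gzma and Eomes, with Ncr1 or Klrb1c among them. Cd3e, Cd3g, Cd3d, Csf1r and Csf3r had to be at 0, and the complement genes C1qa, C1qb and C1qc at 1 UMI or less in sum. The rule found 86 cells among 16798 barcodes that passed the cell filters, 18 of 7484 in the control library and 68 of 9314 in the motolimod library.

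NK cells are innate lymphocytes that kill stressed or infected cells by releasing perforin and granzymes. They carry no rearranged antigen receptor: a balance of activating and inhibitory receptors, many of them of the Klr families encoded side by side in the NK gene complex, decides whether a cell kills. In tumours they are also known as a source of chemokines, among them the XCR1 ligand Xcl1, that attract dendritic cells and T cells.

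Klra4 and Klra8, which encode the activating receptors Ly49D and Ly49H, were among the genes with the highest ratio of motolimod to control in these cells. Both lie on the minus strand of chromosome 6 in GRCm38, Klra4 (ENSMUSG00000079852) at chr6:130043731-130067271 and Klra8 (ENSMUSG00000089727) at chr6:130115226-130129898 (spans of the whole genes, exons and introns included). The 250 bases before each annotated start, from the RefSeq promoter table for GRCm38.p6, are shown because both genes were higher in the motolimod members. They cover chr6:130067272-130067521 and chr6:130129899-130130148 on the minus strand, 5′ to 3′. Capitals mark bases that differ or stand opposite a gap when the pair is aligned end to end.
Klra4: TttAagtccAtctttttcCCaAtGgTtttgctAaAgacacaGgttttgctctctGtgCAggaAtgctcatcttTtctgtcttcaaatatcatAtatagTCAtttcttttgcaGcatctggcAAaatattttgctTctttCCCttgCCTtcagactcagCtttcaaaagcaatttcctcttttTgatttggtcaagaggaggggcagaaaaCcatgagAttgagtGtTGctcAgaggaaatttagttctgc
Klra8: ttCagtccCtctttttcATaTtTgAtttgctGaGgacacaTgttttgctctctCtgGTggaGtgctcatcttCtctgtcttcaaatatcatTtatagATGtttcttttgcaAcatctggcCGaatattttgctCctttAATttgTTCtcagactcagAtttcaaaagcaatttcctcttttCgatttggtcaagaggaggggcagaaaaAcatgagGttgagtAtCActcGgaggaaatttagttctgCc
The stretches shared 84.5% of aligned positions, with 38 marked bases in each. This was the highest identity among the 55 pairs of the 11 Klra genes with an entry, whose identities ran from 39.7% to 84.5% with a median of 50.5%. Klra8 shared 45.9% to 50% with the same stretch of 4 of the marker genes, Ncr1, Klrb1c, Klre1 and Gzma.

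The members' share of the barcodes that passed the cell filters was 0.241% in the control library (95% exact Clopper-Pearson interval 0.143% to 0.380%) and 0.730% in the motolimod library (0.567% to 0.925%), a ratio of 3.04 (1.78 to 5.42). T cells, taken as barcodes with at least 2 of the CD3 genes and without the myeloid genes, numbered 284 and 345, 3.79% and 3.70% of barcodes, a ratio of 0.976 (0.832 to 1.15). Per 100 T cells there were 6.34 NK cells in the control and 19.7 in the motolimod library, a ratio of 3.11 (1.83 to 5.56). All intervals here cover counting error only. With 1 library a group, no difference has a replicate check, the spread between mice is unknown, and no p-value is given.

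The size of that ratio depended on the steps of the rule, and the libraries differed in depth. Over all passing barcodes the median was 14055 UMIs in the control and 3742.5 in the motolimod library. Ncr1 or Klrb1c was detected in 154 control and 195 motolimod barcodes, and 92 and 181 of them held at least 2 markers. Leaving out CD3-positive barcodes kept 67 and 137. The absence of Csf1r, the receptor of macrophage colony-stimulating factor, then removed 43 control barcodes (64.2%) and 52 motolimod barcodes (38%), whose median depths were 23595 and 11977 UMIs. Without the CD3 and myeloid exclusions the shares were 1.23% and 1.94%, a ratio of 1.58 (1.22 to 2.05). When barcodes needed 1000 genes and 2000 UMIs and could have at most 5% of UMIs from mitochondria, the ratio was 4.74 (2.71 to 8.77). Whether the removed barcodes were NK cells with myeloid RNA or other cells was not tested.

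**Figure D1:**
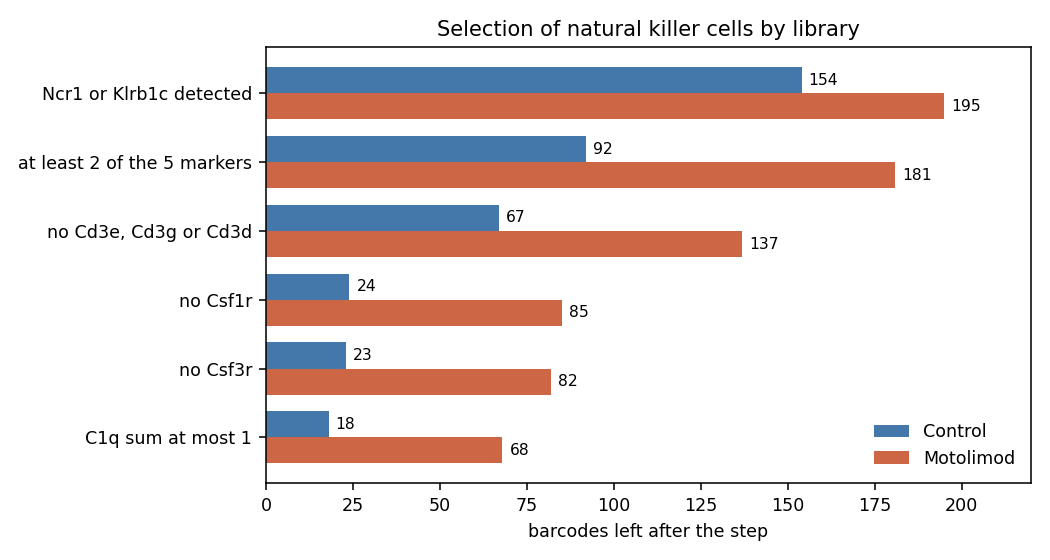
Bars give the number of barcodes left after each step of the rule (x axis, barcodes) in the control (blue) and motolimod (orange) libraries. The control falls from 67 to 24 at the Csf1r step and the motolimod library from 137 to 85, and 18 and 68 are left at the end.

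The members themselves were closer in depth than all barcodes were. The 18 control members held a median of 4140 UMIs (1002 to 12601) and 1568 genes, and the 68 motolimod members 5214.5 UMIs (1230 to 21289) and 1788.5 genes. In all they held 98170 and 415733 UMIs, so the control values rest on few molecules. Of the 5 markers, 4 control members held 2, 5 held 3, 8 held 4 and 1 held all 5. In the motolimod library 4 held 2, 17 held 3, 17 held 4 and 30 held all 5. Barcodes just outside the rule differed in Gzma: in barcodes with 2 C1q UMIs that met every other step it stood at 18738 CPM in 1 control barcode and 10647 CPM in 7 motolimod barcodes. Members with 1 C1q UMI had 8194 CPM (5 barcodes) and 13126 CPM (11 barcodes), and barcodes with 2 or more CD3 UMIs had 0 CPM (4 barcodes) and 2733 CPM (10 barcodes). The libraries shared 113 barcode sequences, and none of them was a member in both, though 1 member's barcode also occurred in the other library.

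Some genes that the rule did not use stood far above their level in T cells. Levels are given as CPM, the UMIs of a gene summed over a library's members and scaled to a fixed total (counts per 1000000 UMIs). These are 3′ molecule counts, so they are not divided by gene length. Tyrobp, the signalling adaptor of many activating receptors, stood at 3565 CPM in the control and 4048 CPM in the motolimod members, against 134 and 307 CPM in T cells. Fcer1g, another adaptor, stood at 3076 and 3254 CPM, against 163 and 264 CPM in T cells. Macrophage-like barcodes also held both adaptors, Tyrobp at 2962 and 3492 CPM and Fcer1g at 5193 and 4855 CPM.

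Ranked by the lower of the ratios to T cells in both libraries, the leading genes at 100 CPM or more were Ncr1, Atp1b1, Car2, Klrb1c, Klra7, Klrb1f, Klrb1b, Gzma, Pde2a, Tyrobp and Fcer1g. The rule chose the members by Ncr1, Klrb1c and Gzma and both classes by CD3, so the ranking is a description. Atp1b1, a subunit of the sodium pump, stood at 204 and 226 CPM in NK cells and at 1.52 and 3.20 CPM in T cells, so the lower of its ratios was 70.7. Car2, a carbonic anhydrase, stood at 275 and 216 CPM against 3.80 and 4.11 CPM, a lower ratio of 52.7. Klra7, which encodes the inhibitory receptor Ly49G, stood at 357 and 541 CPM against 1.14 and 16.0 CPM, a lower ratio of 33.9. In every case named here the NK cells of both libraries lay above the T cells of both. The genes were ranked by their ratio to T cells, so this largely follows from how they were picked.

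**Figure D2:**
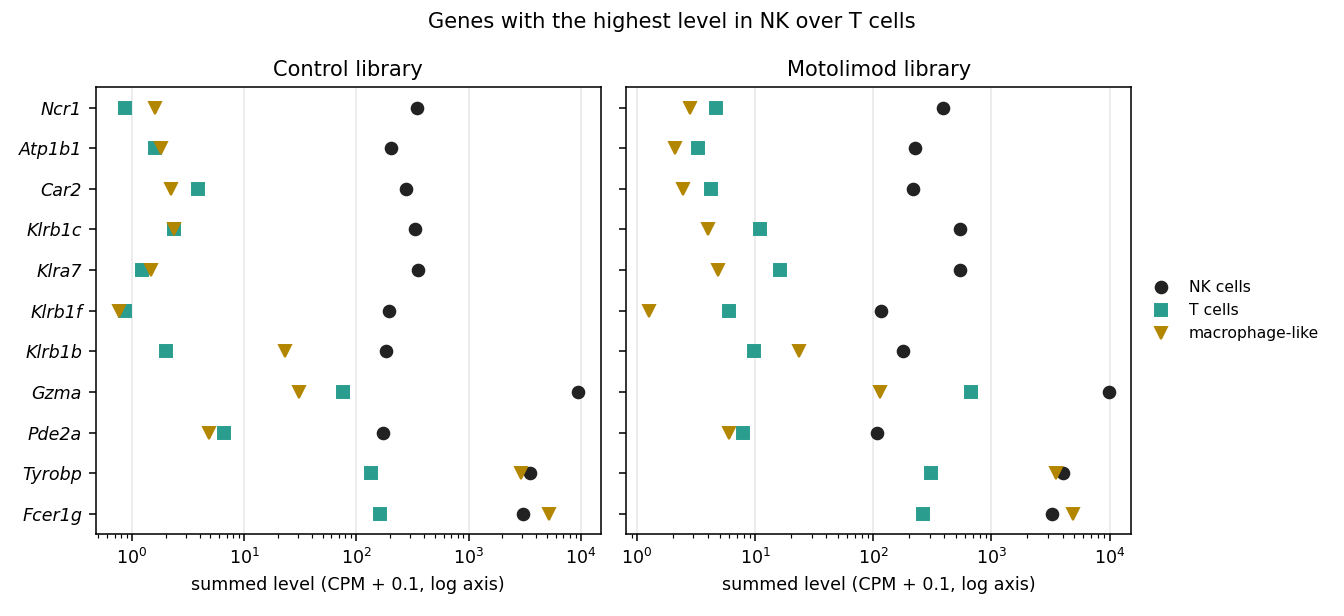
Points give the summed level of 11 genes (x axis, CPM plus 0.1, log scale) in NK cells (black circles), T cells (green squares) and macrophage-like barcodes (ochre triangles), with 1 panel for each library. NK cells lie to the right of T cells for all 11 genes, which were picked for a high ratio of NK to T cells. Tyrobp and Fcer1g in macrophage-like barcodes lie close to their NK levels.

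Many markers of other lymphocytes were at 0. Cd4, Cd8a, Cd8b1, Cd5 and Cd6, which mark T cells, had no UMI in any of the 86 members. The same held for Il23r, Il22, Il1rl1, Il13, Il5 and Ccr6, which mark other innate lymphocytes or their T cell counterparts. Of the 9 markers listed for other innate lymphocytes, 7 were at 0 in the control and 8 in the motolimod members. Areg had 2 UMIs in 2 control members and 0 in the motolimod library, and Kit had 2 and 18 UMIs in 2 and 8 members. A count of 0 allows up to 30.6 CPM in the control and 7.22 CPM in the motolimod members, and, as 3 counts of the number of members, up to 16.7% and 4.41% of cells with a UMI. Trac had 3 and 7 UMIs. Trbc1, a T cell receptor beta constant gene, stood at 132 and 214 CPM, near its 105 and 295 CPM in T cells, and Trbc2 at 81.5 and 93.8 CPM. The 7 gamma-delta T cell markers summed to 102 and 84.2 CPM and were seen in 8 of 18 and 25 of 68 members, with 4 of the 7 at 0 in each library. Trdv4, which led them, had 8 UMIs in 7 control cells and 21 UMIs in 16 motolimod cells, at 81.5 and 50.5 CPM against 141 and 207 CPM in T cells. Their part in the results was not tested.

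Myeloid RNA was low in most members and high in a few. The summed level of 15 macrophage and monocyte markers was 367 CPM in the control and 1359 CPM in the motolimod members, with 6 and 2 of the 15 at 0. For 10 neutrophil markers the sums were 30.6 and 1066 CPM, with 9 and 2 at 0, and for 10 dendritic cell markers 173 and 1701 CPM, with 6 and 5 at 0. The macrophage list includes Ccr2, at 173 and 354 CPM, and the dendritic list Itgax, at 91.7 and 200 CPM. The sums need therefore not be myeloid RNA alone. Over 1% of UMIs came from these marker lists in 1 control member, led by Lyz2 with 5 of its 1002 UMIs. The same held for 4 motolimod members, led by S100a9 with 266 of 5488 UMIs, by Pf4 with 89 of 6414 and 151 of 6876, and by Cd74 with 458 of 17360. The median member had 0.0480% and 0.0752%.

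Across the transcriptome, 1410 genes with a mean over both libraries of at least 100 CPM were compared between the libraries. A gene was called higher or lower when its summed level differed at least 2-fold and the exact interval of the ratio lay off 1. By this rule 51 genes (3.62%) were higher and 39 (2.77%) lower in the motolimod members, 6.38% in all. With each library scaled by the median of ratios instead of its total, 64 were higher and 28 lower. When the rule was applied to cells already thinned to 1000 UMIs, which left 12 and 49 members, 7 genes were higher and 41 lower. Of these, 5 and 4 were among the 51 and 39. Among the list genes named below, Fos, Fosb, Jun, Cd69, Ccr2, Ly6c2, Gzmc and Socs1 were then not called, at 1.13, 1.22, 1.88, 2.20, 3.43, 1.86, 0.429 and 0.327. Klra9, Klrc2, Itgam, Ctla4 and Top2a were too near the floor to be compared there. Members of the gene lists below needed 20 UMIs over both libraries to count as measured, and of the 3452 genes with that many, 2.84% were higher and 2.40% lower, 5.24% in all. The motolimod members held 415733 UMIs and the control members 98170, so genes high in the motolimod members met this minimum more easily. Counts and medians of the lists can be tilted upward by it. The median log2 ratio was -0.10 over the 1410 genes and 0.01 over the 3452.

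None of the 5 markers that define the cells differed 2-fold between the libraries. Gzma, the granzyme that leads in these cells, stood at 9412 CPM in the control and 9797 CPM in the motolimod members, a ratio of 1.04 (0.969 to 1.12). Among single cells it ran from 0 through a median of 7093 to 33958 CPM in the control and from 0 through 9901 to 56360 CPM in the motolimod library. After each cell was thinned to 1000 UMIs, 82.6% and 90.3% of members were expected to hold a Gzma UMI. In macrophage-like barcodes, which should lack the gene, the thinned share was 0.926% and 3.06%, at median depths of 17066 and 8543 UMIs. Ncr1, which encodes the activating receptor NKp46, stood at 346 and 392 CPM, a ratio of 1.13 (0.778 to 1.69). Klre1 and the transcription factor Eomes had ratios of 1.30 (0.898 to 1.93) and 1.24 (0.710 to 2.33). Klrb1c, the gene of the NK1.1 antigen, was at 336 and 536 CPM, a ratio of 1.60 (1.10 to 2.38). Since these genes chose the members, their levels are descriptions.

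Of 9 measured activating receptor genes, 3 were called higher and none lower, with a median log2 ratio of 0.70 beside 0.01 for all measured genes. Klra8 stood at 40.7 CPM in the control members (4 UMIs in 3 of 18 cells) and at 394 CPM in the motolimod members (164 UMIs in 37 of 68 cells), a ratio of 9.68 (3.71 to 36.0). Ly49H, its product, is known for recognising mouse cytomegalovirus. Klra4 stood at 81.5 CPM (8 UMIs in 3 cells) and 438 CPM (182 UMIs in 29 cells), a ratio of 5.37 (2.67 to 12.6). The highest motolimod cell held 18 UMIs of each, so no single cell made up the level. Klrc2, of the activating NKG2C receptor, had 1 UMI in the control and 29 UMIs in 23 motolimod cells, a ratio of 6.85 (1.14 to 279.7) that was not called as a mean over cells (5.31).

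In thinned cells, the expected share with a Klra8 UMI was 4.67% in the control and 27.7% in the motolimod library, and 8.01% and 26.3% for Klra4. T cells gave 0.00951% and 0.150% for Klra8, at median depths of 5010.5 and 4878 UMIs. No control member held both Klra4 and Klra8, while 20 motolimod members did, 9 held Klra4 without Klra8 and 17 Klra8 without Klra4. Klrk1, which encodes NKG2D, the receptor for stress ligands, stood at 295 and 479 CPM, a ratio of 1.62 (1.09 to 2.48) that was not called. When the rule was applied to thinned cells, Klra8 remained called. Its control count was then set to the floor of 3 counts, so its ratio of 2.53 is a minimum. The ratio of Klra4 was then 1.80 and not called.

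Of 10 measured inhibitory receptor genes, 1 was called higher and none lower, with a median log2 ratio of 0.39. The called gene was Klra9, which encodes Ly49I, at 30.6 CPM (3 UMIs in 2 cells) in the control and 166 CPM (69 UMIs in 22 cells) in the motolimod members, a ratio of 5.43 (1.78 to 27.0). Klra7 had a ratio of 1.52 (1.06 to 2.23) and Klra3, which encodes Ly49C, of 3.42 (0.866 to 29.6), neither called. Klrd1, the CD94 partner of the NKG2 receptors, stood at 805 and 912 CPM, a ratio of 1.13 (0.887 to 1.46). Klrc1, the inhibitory NKG2A, stood at 183 and 202 CPM, and Tigit at 183 and 154 CPM.

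Counting 9 Klra genes together, 2 or more were detected in 6 of 18 control members (33.3%, 13.3% to 59.0%) and 47 of 68 motolimod members (69.1%, 56.7% to 79.8%). After thinning to 1000 UMIs the numbers were 2 (11.1%, 1.38% to 34.7%) and 20 (29.4%, 19.0% to 41.7%). At least 1 was detected in 16 of 18 and 58 of 68 members before thinning, and in 8 and 47 after it. At the thinned depth the intervals for 2 or more overlapped. Klra genes are related in sequence: over the last 300 bases of their transcripts, which a 3′ assay reads, Klra8 and Klra9 were 79.2% identical, Klra4 and Klra7 73.9%, and Klra4 and Klra8 57.2%. How the counting split reads among them is uncertain.

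**Figure D3:**
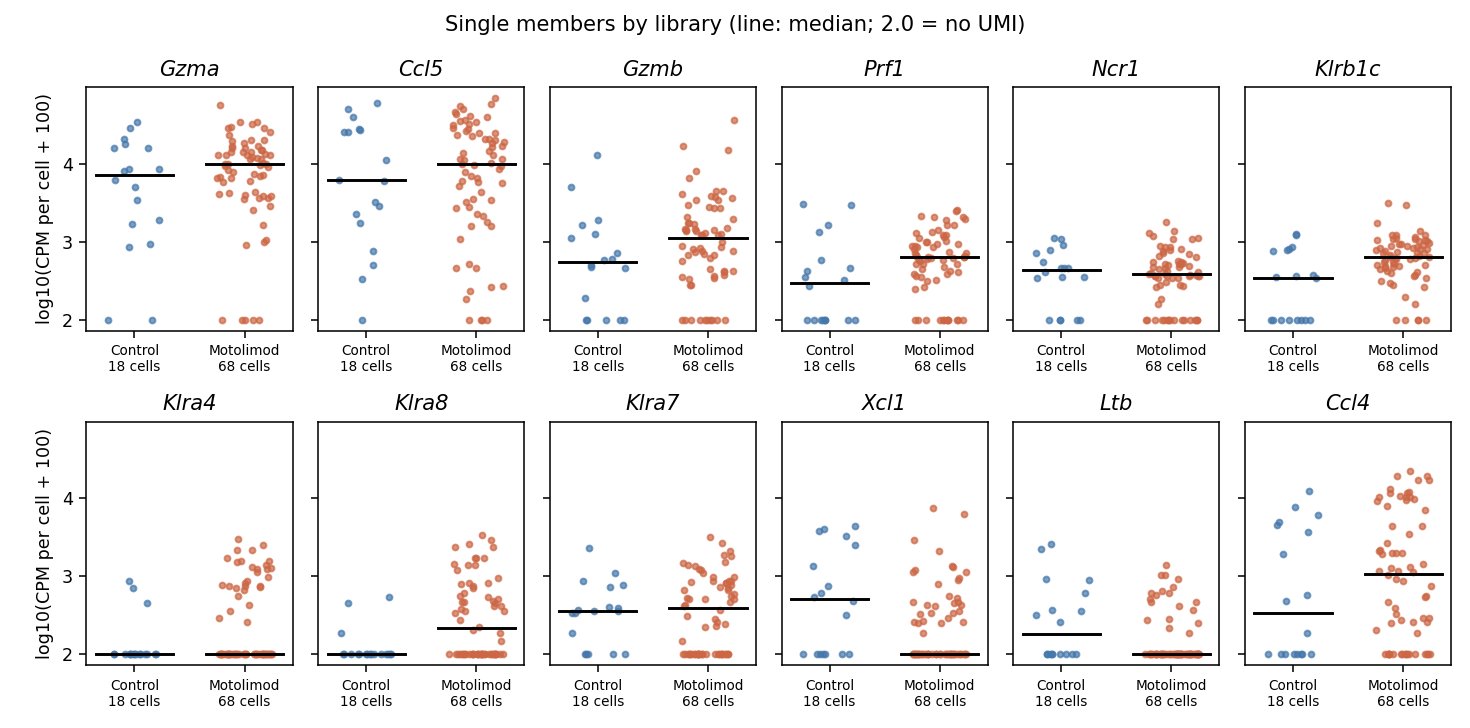
Each point is 1 member (18 control, blue; 68 motolimod, orange) and the line the median; the y axis is log10 of CPM per cell plus 100, so cells without a UMI lie at 2. Gzma and Ccl5 are detected in most cells of both libraries, Klra4 and Klra8 UMIs occur in 3 control cells each, and high Xcl1 cells are a larger part of the control.

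Of 13 measured adaptor and signalling genes none was called, with a median log2 ratio of 0.11. Tyrobp had a ratio of 1.14 (1.01 to 1.28), Fcer1g of 1.06 (0.933 to 1.20) and Hcst, the DAP10 adaptor of NKG2D, of 0.958 (0.733 to 1.27). Of 13 transcription factor genes, none was called either, at a median log2 ratio of -0.08. Tbx21, which encodes T-bet, stood at 234 and 205 CPM, and Irf8 at 1263 and 1099 CPM.

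Among 10 measured cytotoxic effector genes, 1 was called higher, 1 was called lower and the median log2 ratio was 0.05. Gzmb, the granzyme that activates caspases, stood at 1059 CPM in the control and 2018 CPM in the motolimod members, a ratio of 1.90 (1.55 to 2.36), just under the 2-fold line. In single cells its median was 442 CPM in the control and 1008 CPM in the motolimod library. Prf1, the pore-forming perforin, stood at 418 and 654 CPM, a ratio of 1.57 (1.13 to 2.23), and Nkg7, a granule membrane protein, at 2343 and 3322 CPM, a ratio of 1.42 (1.23 to 1.64). The called genes were Lamp1, of the lysosomal membrane, at 50.9 and 137 CPM (ratio 2.69, 1.09 to 8.61), and Gzmc, another granzyme, at 581 and 265 CPM (0.456, 0.328 to 0.639). Gzmc came from 4 control and 14 motolimod cells, and without the highest cell of each library its ratio was 2.48, and as a mean over cells it was 0.567 and not called. Lamp1 lost its call under 5 alternatives, at 1.60 to 2.42. Gzmb was called higher with at least 3 markers (2.14), with median-of-ratios scaling (2.04) and without its highest cell (2.75). Leaving out a gene's highest cell drops 1 of 18 control and 1 of 68 motolimod cells, with the totals kept. That alternative therefore tilts ratios upward, here and below. Gzmd, Gzme and Gzmg, which T cells of these libraries held, had no UMI in any member.

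Secreted factors went both ways. Of 8 measured cytokine and chemokine genes, 1 was called higher and 2 lower. Xcl1, the ligand of XCR1 on cross-presenting dendritic cells, stood at 1141 CPM in the control members (112 UMIs in 11 of 18 cells) and 409 CPM in the motolimod members (170 UMIs in 31 of 68 cells), a ratio of 0.358 (0.281 to 0.459). The thinned share of cells with Xcl1 was 42.2% and 20.6%. In T cells it stood at 110 and 142 CPM, a ratio of 1.30 (1.10 to 1.53); the difference between the cell types was not tested. Ltb, which encodes lymphotoxin beta, a factor of lymphoid tissue organisation, stood at 357 and 120 CPM, a ratio of 0.337 (0.215 to 0.535). Its ratio in T cells was 1.21 (1.13 to 1.30). Xcl1 was not called when the rule was applied to thinned cells, at 0.531, and 1 motolimod cell held 61 of its 170 UMIs.

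Ccl4, an inflammatory chemokine, stood at 1650 CPM (10 of 18 cells) and 3493 CPM (51 of 68 cells), a ratio of 2.12 (1.80 to 2.51). T cells had 746 and 1642 CPM of Ccl4, a ratio of 2.20 (2.08 to 2.33), and 30.7% and 45.4% of thinned macrophage-like barcodes held it. The Ccl4 ratio was 1.83 with high doublet scores left out, 1.69 as a mean over cells and 1.13 with the rule applied to thinned cells, none of them called. Ccl5, the highest of these genes, stood at 11877 and 12862 CPM, a ratio of 1.08 (1.02 to 1.15). Ifng, which encodes interferon gamma, stood at 173 and 209 CPM, from 5 and 30 cells, a ratio of 1.21 (0.713 to 2.17). Csf2 and Il2 had no UMI in any member.

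**Figure D4:**
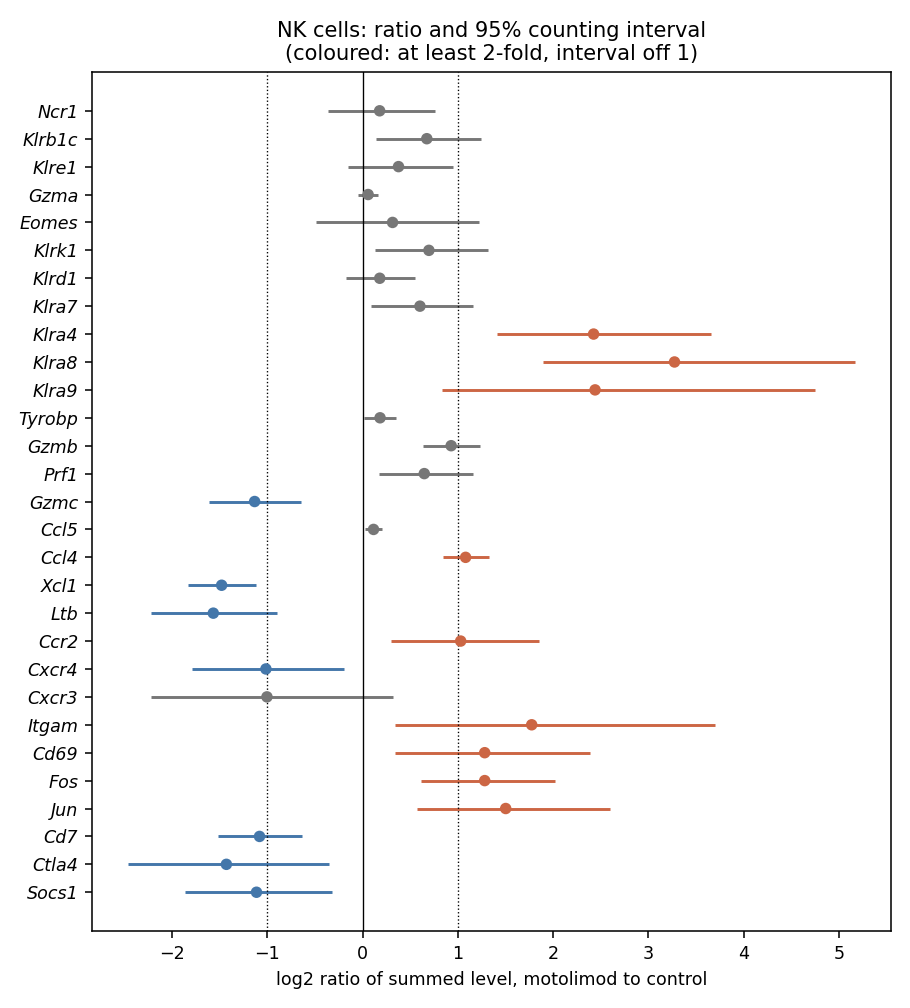
Points are log2 ratios of the summed level, motolimod to control (x axis), for 29 genes, and bars their 95% counting intervals; orange genes were called higher, blue genes lower and grey genes neither, with dotted lines at 2-fold. Gzma, Ncr1, Tyrobp and Ccl5 lie close to 0, Klra4, Klra8 and Klra9 right of 2-fold, and Xcl1 and Ltb left of it.

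Of 6 measured chemokine and homing receptor genes, 2 were called higher and 1 lower. Ccr2, which draws cells out of the blood towards CCL2, stood at 173 CPM (9 cells) and 354 CPM (49 cells), a ratio of 2.04 (1.23 to 3.60), and its ratio in T cells was 2.36 (1.95 to 2.86). Cxcr4, the receptor of CXCL12, stood at 214 and 106 CPM, a ratio of 0.495 (0.288 to 0.876). Cxcr3, a receptor of interferon-induced chemokines, stood at 91.7 CPM (6 cells) and 45.7 CPM (14 cells), a ratio of 0.499 (0.215 to 1.25) that was not called. With the rule applied to thinned cells, Cxcr4 reversed, to 2.69. It also lost its call with high doublet scores left out (0.507), with median-of-ratios scaling (0.530), as a mean over cells (0.706) and without its highest cell (0.767). Cxcr6, which 29.5% and 40.8% of thinned T cells held, had 0 UMIs in the control and 3 UMIs in the motolimod members.

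Of 9 measured cytokine receptor genes none was called, and the median log2 ratio was 0.17. Il2rb, the shared chain of the IL-2 and IL-15 receptors, stood at 1253 and 1155 CPM, a ratio of 0.922 (0.754 to 1.13). The IL-18 receptor gene Il18rap stood at 153 and 173 CPM. Tlr7 and Tlr8 had no UMI in any of the 86 members. In macrophage-like barcodes 0.737% and 0.885% held Tlr8 after thinning, and 1.78% and 4.06% held Tlr7. The Toll-like receptor pathway list had 6 measured genes, none called, with Nfkbia, an inhibitor of NF-kappa-B, at 1681 and 1046 CPM (ratio 0.623, 0.519 to 0.749).

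NK cells share much with type 1 innate lymphoid cells (ILC1), tissue-resident relatives, and genes of each were listed. In the list of 15 ILC1 and residency genes only 4 were measured: Cd69 was called higher, Xcl1 and Ltb lower, and Rgs1 neither. Zfp683 and Itgae had no UMI, Cd200r1 had 0 and 3 UMIs, and Itga1 had 1 and 11. Of 11 measured genes of mature circulating NK cells, 2 were called higher and none lower, at a median log2 ratio of 0.24 that was -0.48 with members thinned and 0.94 without the highest member of each gene. Itgam, the integrin CD11b of mature NK cells, stood at 40.7 CPM (4 UMIs in 3 cells) and 140 CPM (58 UMIs in 30 cells), a ratio of 3.42 (1.27 to 13.0). Ly6c2 stood at 244 and 695 CPM, a ratio of 2.84 (1.87 to 4.51), and had a ratio of 3.00 (2.81 to 3.20) in T cells. As a mean over cells its ratio was 1.71 and not called. Macrophages also express Itgam, and 22.4% and 28.1% of thinned macrophage-like barcodes held it.

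Taking thinned cells, at least 2 ILC1 and residency genes were found in 7 of 18 control members (38.9%) and 13 of 68 motolimod members (19.1%), against 60.4% and 64.9% of T cells. At least 2 mature genes were found in 15 (83.3%) and 62 (91.2%), against 48.8% and 58.5% of T cells. Before thinning the ILC1 shares were 83.3% and 67.6% and the mature shares 100% and 98.5%. At least 3 cell cycle genes were found in 2 (11.1%, 1.38% to 34.7%) and 5 (7.35%, 2.43% to 16.3%) thinned members, and in 6 and 18 members before thinning. Of 15 measured cell cycle genes, Top2a alone was called, lower at 214 and 106 CPM, and the median log2 ratio was -0.35. Top2a came from 4 and 8 cells and was not called without its highest cell (0.644).

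Activation genes of the immediate early kind were split. Of 13 measured, 3 were called higher and none lower, with a median log2 ratio of 0.17. Fos stood at 204 and 496 CPM (ratio 2.43, 1.53 to 4.07), Fosb at 40.7 and 202 CPM (4.96, 1.87 to 18.6) and Jun at 102 and 289 CPM (2.83, 1.49 to 6.06). These encode subunits of the transcription factor AP-1. Junb and Jund, of the same family and far higher in level, had ratios of 0.783 (0.680 to 0.904) and 0.841 (0.724 to 0.979). Cd69, an early activation antigen, stood at 102 and 248 CPM (ratio 2.43, 1.27 to 5.22), and in T cells at 102 and 266 CPM. Fos and Jun were not called when 1 CD3 UMI was allowed, which added 2 control and 4 motolimod cells, at 1.75 and 1.34, and Fos was not called as a mean over cells (1.89). Of 8 measured heat-shock genes none was called, at a median log2 ratio of -0.15.

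Of 9 measured checkpoint and exhaustion genes, 1 was called lower and none higher, at a median log2 ratio of -0.45. Lag3, with 1 and 19 UMIs, had a ratio of 4.49 (0.713 to 186) that was not called. The called gene was Ctla4, an inhibitory receptor, at 143 CPM (14 UMIs in 7 cells) and 52.9 CPM (22 UMIs in 14 cells), a ratio of 0.371 (0.182 to 0.784). Its ratio in T cells was 0.968 (0.867 to 1.08), and without its highest cell it was 0.449 in NK cells and not called. Pdcd1, which 23.7% and 21.5% of thinned T cells held, had no UMI in any member. Cd7, an early lymphocyte antigen on NK and T cells, was outside the lists and was named after its values were seen: it stood at 672 and 318 CPM, a ratio of 0.472 (0.349 to 0.645), against 34.2 and 85.8 CPM in T cells.

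Of 9 measured type I interferon response genes, 1 was called higher, at a median log2 ratio of 0.40. It was Ifi27l2a, at 194 and 575 CPM (ratio 2.97, 1.86 to 5.02), and without the members holding over 1% UMIs of other-lineage markers its ratio was 1.05. Isg15 stood at 143 and 248 CPM (ratio 1.74, 0.990 to 3.29). Of 9 interferon gamma response genes, Socs1, a brake on cytokine signalling, was called lower at 234 and 108 CPM (0.462, 0.274 to 0.80), and the median log2 ratio was -0.36. Socs1 was not called with 1 CD3 UMI allowed (0.588) or without its highest cell (0.605). Of 12 glycolysis genes and 18 ribosomal protein genes none was called, at medians of 0.18 and -0.18. Of 6 costimulation genes, Cd69 alone was called.

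**Figure D5:**
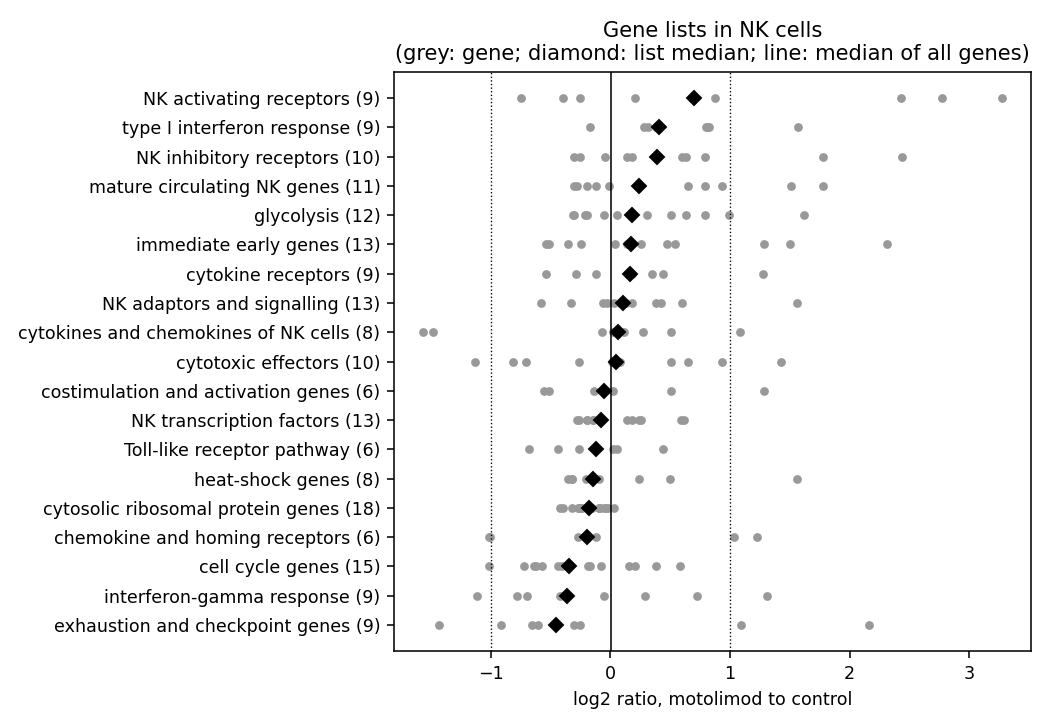
Grey points are the log2 ratios, motolimod to control (x axis), of the measured genes of each list (y axis, number measured in brackets), diamonds the list medians, the solid line the median of all measured genes at 0.01 and dotted lines 2-fold. The medians lie between -0.45 for exhaustion and checkpoint genes and 0.70 for activating receptors.

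The largest ratios of all were carried by single cells. Pf4, a platelet and macrophage chemokine named in the study's title, had 1 UMI in the control and 260 in 9 motolimod members, of which 151 were in 1 cell. Its ratio was 61.4 (10.9 to 2434), and 5.12, not called, without the members holding over 1% UMIs of other-lineage markers. Cd74, the invariant chain of class II antigen presentation, had 3 UMIs and 464 UMIs, of which 458 were in 1 motolimod cell. H2-Aa, H2-Eb1 and H2-Ab1, of the class II molecules, had 188, 183 and 147 of their UMIs in 1 cell. S100a9, a neutrophil gene, was at 0 in the control and had 272 UMIs in the motolimod members, 266 of them in 1 cell, which made it at least 21.4-fold higher against a floor of 3 counts in the control. Cxcl2 had 231 of 411 UMIs in 1 cell, and its ratio was 1.53 with high doublet scores left out. Of the 12 genes with the highest ratios, the top motolimod cell held at most 13.1% of the UMIs of Klra8, Klra4 and Fosb and at least 47.3% of those of the other genes.

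Among the 12 lowest ratios, the genes beside Ltb and Xcl1 rested on few molecules. Clcn3, an endosomal chloride transporter, had 18 UMIs in 10 control cells and 19 UMIs in 16 motolimod cells (183 and 45.7 CPM, ratio 0.249, 0.124 to 0.504). Gclm, a subunit of the enzyme that makes the glutathione precursor, stood at 194 and 62.5 CPM (0.323, 0.172 to 0.618) and had a ratio of 0.482 (0.399 to 0.580) in T cells. Serpinb9b, a granzyme inhibitor, stood at 255 and 86.6 CPM (0.340, 0.199 to 0.591), and its ratio in T cells was 0.512 (0.429 to 0.608). Ier5l, Tecr, Utrn, Gna13, Map2k2, Herpud1 and Rnf114 had ratios of 0.331 to 0.403. Their ratios in T cells ran from 0.832 to 1.31. With the rule applied to thinned cells, Serpinb9b, Ier5l, Tecr and Gna13 were not called, at 0.184, 0.980, 0.612 and 0.327.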

How the data were processed

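Droplet 3′ single-cell RNA-seq gave 1 library for each group, about 30000 cells loaded from CD45-selected tumour cells (5 mice a group). The deposited matrices hold whole UMI counts per gene and barcode, made by the authors with Cell Ranger on mm10. The version is 5.0.1 per the submitters' processing notes and 7.1.0 per the file headers. The files list 32285 genes, of which 38 symbols occur more than once.

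Here the cell rule was applied to the counts, UMIs were summed over members in each library, and sums were given as CPM with exact Poisson intervals. Ratios carry exact conditional binomial intervals at 95%, and a count of 0 was set to a floor of 3 counts. Macrophage-like barcodes held Csf1r and at least 3 C1q UMIs. Shares were compared after thinning to 1000 UMIs. No doublets were removed from the reported values, since Scrublet (scanpy 1.11.5) called 0 in each library at its own threshold and so did not work. As an alternative, the 448 and 694 barcodes with the highest scores were left out, which took 0 and 3 members. Gene positions are from GENCODE vM21 (GRCm38). The calculations were tested on simulated data.

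Members, lists and tests were chosen with earlier results of these data known. Named genes were the rule markers, from each list up to 6 with the highest level and up to 4 with the largest called ratio, the 12 highest and 12 lowest called ratios, the 12 highest over T cells, and other cell types' markers at 50 CPM or more. Some of these genes are not reported here, but counts over lists and genes include them. Alternatives changed the cell filter, doublets, markers, exclusions, depth, scaling and level minimum.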

Additional observations from a re-analysis of the deposited data

How the results depend on the processing

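No paired analysis was possible because each group has 1 library, so leaving a replicate out was not possible either. Of 16 alternative values for the share and the ratio to T cells, 15 stayed within the reported interval; without the CD3 and myeloid exclusions, an alternative chosen after seeing the data, the share ratio was 1.58. Of 177 alternative list medians, 173 stayed, which here means that the median log2 ratio changed by less than 0.5. A small median could therefore change sign and still count as stayed. With members thinned the inhibitory receptors' median log2 ratio was 1.08 and that of mature NK genes -0.48. These medians may cover fewer genes than the reported ones, since thinned members hold fewer UMIs. Without the highest member of each gene, also chosen after seeing the data, the median was 0.94 for mature NK genes and 0.98 for the type I interferon response. That alternative drops 1 of 18 control and 1 of 68 motolimod members, which tilts ratios upward, and 66 genes were then called higher. The number of genes called higher was 7 with the rule applied to thinned cells, 80 at a minimum of 50 CPM and 11 at 300 CPM. For lower genes it was 91 at 50 CPM, 4 at 300 CPM and 12 without the highest member; fewer or more genes were tested at those minimums. Of the 51 higher and 39 lower genes, 5 and 4 were called again with the rule applied to thinned cells (12 and 49 members). For single genes, 1440 of 1513 values stayed. For a called gene this means that direction and call were kept. For a gene not called it means that no call arose in its direction, and its direction was not checked. Values near the floor were left out. Reversals under the rule applied to thinned cells were Cxcr4 at 2.69, Herpud1 at 1.47 and Ifitm3 at 0.612. Ifitm3 was also reversed as a mean over cells, at 0.951, and Gzmc without its highest member, at 2.48. The cause was not tested. Depth limits the control most: 18 cells and 98170 UMIs put the floor at 30.6 CPM.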

Other observations

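The part of each library's UMIs of NK genes that lay in the members is given as a description. Ncr1, Klrb1c and Gzma chose the members, and all these parts follow the numbers of members, 18 and 68. They also depend on the exclusions, of which the Csf1r step removed 64.2% of control and 38% of motolimod barcodes. In the control library they held 20.7% of all Ncr1 UMIs, 13.1% of Klrb1c and 21.3% of Gzma, and in the motolimod library 48.8%, 45.9% and 35.1%. T cells held 1.22% and 2.99% of Ncr1 UMIs. For Prf1 and Gzmb the members held 1.47% and 1.04% of UMIs in the control and 12.2% and 10.7% in the motolimod library, while T cells held 37.4% and 44.7%, and 36.8% and 44.8%. For Ifng the members held 0.913% and 3.73%, and T cells 37.2% and 47.1%.

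In T cells Gzma itself stood at 75.6 CPM in the control and 677 CPM in the motolimod library, a ratio of 8.96 (7.73 to 10.4), beside 1.04 in the NK members, which it helped to choose. For the other markers the T cell ratios were 6.01 for Ncr1, 4.81 for Klrb1c, 1.41 for Klre1 and 0.785 for Eomes. Macrophage-like barcodes held Gzma at 31.0 and 114 CPM. Where this RNA came from was not tested. Itgax, an integrin listed as a dendritic cell marker, stood at 91.7 CPM (7 cells) and 200 CPM (34 cells) in NK members, a ratio of 2.18 (1.09 to 4.93). Of the same list, Xcr1, Clec9a, Flt3 and Fscn1 were at 0 in both libraries. Cd74 (3 and 464 UMIs) and H2-Ab1 (2 and 149 UMIs), also listed there, were called higher and rested largely on 1 motolimod cell. Kit, listed for other innate lymphocytes, had 2 and 18 UMIs, in 2 and 8 members.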
